A study of Mus musculus with 3 samples.

Results

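The genes described here encode the effectors and the feedback regulators of the integrated stress response: Ddit3 (the transcription factor CHOP), Trib3 (the pseudokinase TRIB3) and Nupr1 (a small stress-induced chromatin protein) as effectors, Ppp1r15a and Ppp1r15b (GADD34 and CReP, which direct protein phosphatase 1 to phosphorylated eIF2alpha), and Eif2ak1, Eif2ak2, Eif2ak3 and Eif2ak4 (HRI, PKR, PERK and GCN2, the eIF2alpha kinases). They were chosen by name, with earlier results of these data known, and are 9 genes of the 21887 protein-coding genes in the table used. Binding was read from ChIP-seq peak lists of ATF4 and of CEBPG, made from wild-type C57BL/6 mouse embryonic fibroblasts (primary cells taken from E13.5 embryos) that had been plated for 24 hours and then held in amino acid deprived medium for 3 hours. The antibodies were a commercial ATF4 antibody and an antiserum against the C terminus of CEBPG, with 1 library each. A GFP antibody library of the same cells was not analysed here. Both libraries used come from deprived cells, and fed cells were not analysed here. A peak was assigned to a gene when it overlapped the gene's mm10 RefSeq span or the 20 kb on either side. Of 2642 ATF4 peaks 3 fell in these windows, and of 25419 CEBPG peaks 12 did. With 1 library per antibody no value below has an error between cultures, and no difference was tested. Library depth is unknown, and peak lists hold no expression values against which the labelled cell type could be checked.

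In the integrated stress response, eIF2alpha kinases sense distinct stresses and phosphorylate eIF2alpha. GCN2 responds to uncharged transfer RNA, PERK to unfolded protein in the endoplasmic reticulum, PKR to double-stranded RNA and HRI to lack of heme and to mitochondrial stress. General translation then falls while translation of ATF4 rises, and ATF4 activates stress genes as a dimer with C/EBP family proteins, among them CEBPG. CHOP is one of those gene products and acts with ATF4, TRIB3 is known to restrain ATF4 and CHOP, and GADD34 is the stress-induced subunit that reverses eIF2alpha phosphorylation, whereas CReP is the constitutive one. The composite element bound by ATF and C/EBP dimers joins a recognition sequence for ATF proteins to one for C/EBP proteins.

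The promoter sequences of the effectors and of Ppp1r15a are shown because a CEBPG peak lay on each of them, and that of Eif2ak4 is shown as a kinase promoter with no peak. Each runs 5′ to 3′ on the strand of its gene, from 250 bases before the listed start to 30 bases after it, and comes from RefSeq (GRCm38.p6, the build called mm10). Capitals mark matches, on either strand, to the composite element TGATGNAA in Trib3 and Nupr1 and to the cyclic AMP response element TGACGTCA in Ppp1r15a. Ddit3 and Eif2ak4 have no capitals, since neither motif matched there.
Trib3, chr2:152344031-152344310, minus strand: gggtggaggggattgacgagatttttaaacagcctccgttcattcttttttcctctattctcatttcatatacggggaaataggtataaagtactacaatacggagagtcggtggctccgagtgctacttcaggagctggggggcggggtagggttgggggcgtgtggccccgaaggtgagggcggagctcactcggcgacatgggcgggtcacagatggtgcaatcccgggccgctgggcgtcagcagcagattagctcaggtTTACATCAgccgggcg
Nupr1, chr7:126625441-126625720, minus strand: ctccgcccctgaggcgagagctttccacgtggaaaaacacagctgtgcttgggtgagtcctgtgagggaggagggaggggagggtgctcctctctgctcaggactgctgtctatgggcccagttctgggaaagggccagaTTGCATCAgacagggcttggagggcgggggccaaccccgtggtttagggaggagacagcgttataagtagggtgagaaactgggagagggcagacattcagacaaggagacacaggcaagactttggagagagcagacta
Ddit3, chr10:127290543-127290822, plus strand: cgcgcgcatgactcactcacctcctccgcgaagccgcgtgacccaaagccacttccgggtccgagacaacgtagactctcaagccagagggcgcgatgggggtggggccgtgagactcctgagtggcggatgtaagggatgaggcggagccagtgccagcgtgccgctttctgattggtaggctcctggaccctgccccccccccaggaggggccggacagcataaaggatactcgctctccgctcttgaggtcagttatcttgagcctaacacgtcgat
Ppp1r15a, chr7:45526239-45526518, minus strand: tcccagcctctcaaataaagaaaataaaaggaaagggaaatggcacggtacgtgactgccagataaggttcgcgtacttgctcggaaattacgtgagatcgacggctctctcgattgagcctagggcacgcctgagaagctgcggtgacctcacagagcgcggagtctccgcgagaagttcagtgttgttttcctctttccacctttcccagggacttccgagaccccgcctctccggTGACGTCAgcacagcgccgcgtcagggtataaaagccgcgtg
Eif2ak4, chr2:118388367-118388646, plus strand: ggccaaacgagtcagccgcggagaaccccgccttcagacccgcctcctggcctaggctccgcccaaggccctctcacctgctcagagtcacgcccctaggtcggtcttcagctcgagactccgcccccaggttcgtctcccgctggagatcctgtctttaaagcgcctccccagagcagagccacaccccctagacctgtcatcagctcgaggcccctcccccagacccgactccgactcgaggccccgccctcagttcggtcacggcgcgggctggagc

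All 3 effectors carried a CEBPG peak at the start or just upstream of it, with scores far above the median of the list. On top of it, 2 of them, Trib3 and Nupr1, carried an ATF4 peak. That peak was near the median of the ATF4 list at Trib3 and in the first 11.1% of it at Nupr1. The phosphatase subunit genes resembled the effectors, with a CEBPG peak at one end of each gene and an ATF4 peak at Ppp1r15b. The kinase genes had no ATF4 peak and, at 3 of 4, a single low CEBPG peak far from the start, counts near the 7.74% and 56.5% of all genes with spans of 30 to 100 kb that had an ATF4 and a CEBPG peak. Peak strength is given as the score that the authors deposited with each peak, which begins at 40 in both lists and is read here only within its own list. The median score was 45.88 over the whole ATF4 list and 47.24 over the whole CEBPG list.

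**Figure D1:**
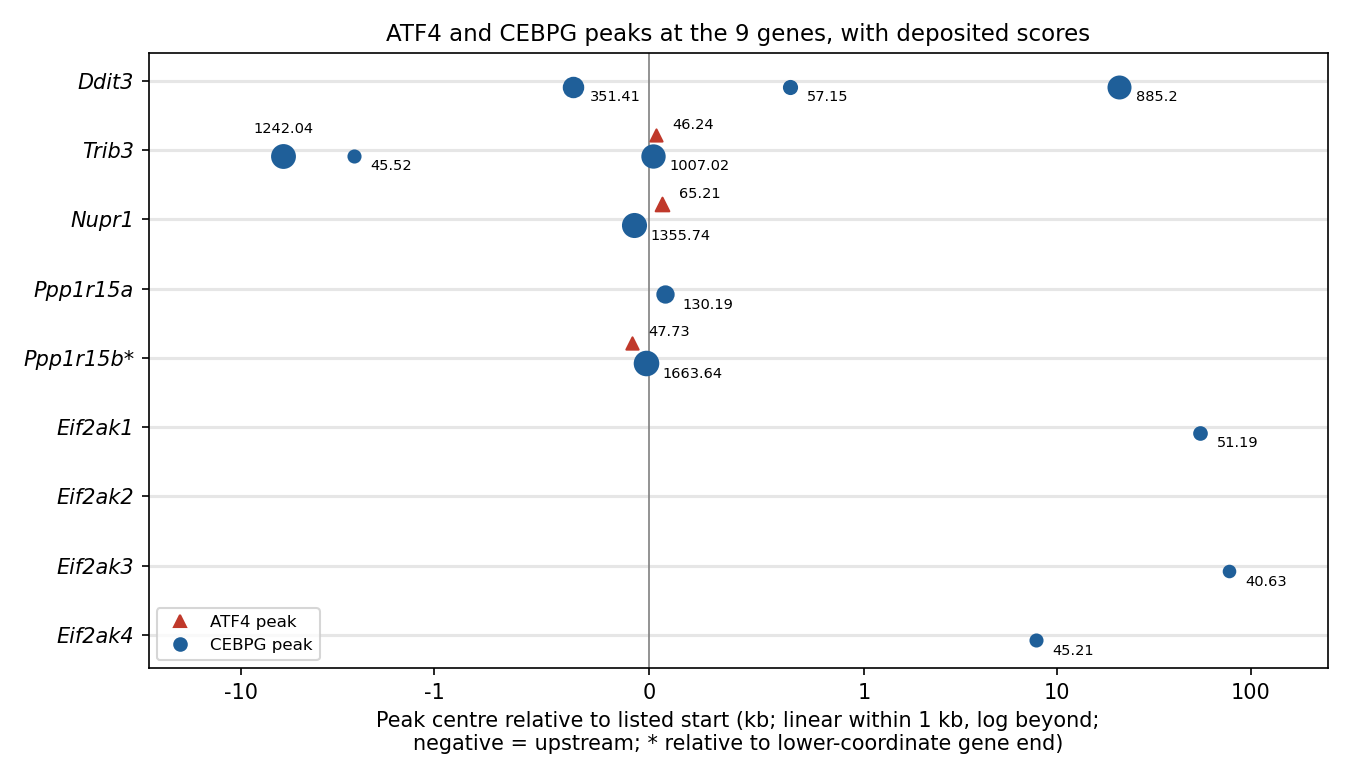
Peak centres at the 9 genes, in kb from the listed start (linear within 1 kb and logarithmic beyond, negative values upstream), with triangles for ATF4, circles for CEBPG, symbol size growing with score and the score printed beside each peak. Ppp1r15b is drawn from its lower-coordinate end. Trib3, Nupr1 and the phosphatase genes have peaks centred close to 0 and Ddit3 has one 353 bp upstream, while the 3 kinase peaks lie from 7.76 to 77.1 kb downstream and Eif2ak2 has none.

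Trib3 spans chr2:152337425-152344060 on the minus strand. Its ATF4 peak (chr2:152343896-152344162) had a score of 46.24, rank 1282 of 2642, and was centred 31 bp downstream of the start. The CEBPG peak over it (chr2:152343812-152344272) had a score of 1007.02, rank 293 of 25419, and was centred 18 bp downstream of the start. The peak centres were thus 13 bp apart, with ATF4 close to the median of its list and CEBPG in the first 1.15% of its own. In the sequence above, the CEBPG peak covered the stretch from base 39 to base 280 and the ATF4 peak from base 149 to base 280. The composite element, read TTACATCA on the strand of the gene, lay 14 to 21 bases downstream of the start (the start base counted as 0). It sat 0 bp from the centre of the CEBPG peak and 13 bp from that of the ATF4 peak.

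Trib3 also had CEBPG peaks upstream that no ATF4 peak touched. The stronger, at chr2:152349841-152350381, was centred 6.05 kb upstream of the start and had a score of 1242.04 (rank 213), above that of the peak at the start. The weaker, at chr2:152346615-152346718 and 2.61 kb upstream, had a score of 45.52 (rank 14378). Trib3 was the nearest protein-coding gene to both.

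Nupr1 spans chr7:126623246-126625470 on the minus strand. Its ATF4 peak (chr7:126625269-126625549) had a score of 65.21, rank 292, the highest ATF4 score among the 9 genes. The CEBPG peak (chr7:126625217-126625862) had a score of 1355.74, rank 188. It was centred 69 bp upstream of the start, and the ATF4 peak 61 bp downstream of it, so their centres were 130 bp apart. The CEBPG peak was 646 bp wide and covered all 280 printed bases, and the ATF4 peak was 281 bp wide and covered them from base 172 on. The composite element of Nupr1, from 110 to 103 bases before the start, is part of the longer match ATTGCATCA, which is TGATGCAAT on the opposite strand. It lay 37 bp from the centre of the CEBPG peak and 24 bp outside the edge of the ATF4 peak.

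Ddit3 spans chr10:127290793-127296291 on the plus strand and had CEBPG peaks without an ATF4 peak in its window. The peak just upstream (chr10:127290256-127290625, score 351.41, rank 983) was centred 353 bp before the start and covered the first 83 of the printed bases. A weak peak (chr10:127291369-127291532, score 57.15, rank 6431) was centred 657 bp inside the gene. The highest score in the window, 885.2 (rank 349, chr10:127311401-127311954), belonged to a site 15386 bp beyond the far end of Ddit3. That site overlapped the listed promoter of Mars1, methionyl-tRNA synthetase, and was centred 109 bp downstream of the Mars1 start. The centre of the upstream peak also fell within the span of Mbd6, whose span overlaps the first bases of Ddit3. Mbd6 lies on the minus strand (chr10:127281956-127290869), so the peak was close to the 5′ end of that span as well as to the Ddit3 start. Mbd6, not Ddit3, was the nearest protein-coding gene to the peak, although the peak touched neither of the listed Mbd6 promoters. Which of the genes the peak belongs to was not tested. The nearest ATF4 peak was 225 kb from Ddit3, at Shmt2.

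Ppp1r15a, the gene for the induced phosphatase subunit GADD34, spans chr7:45522917-45526268 on the minus strand. It had 1 CEBPG peak (chr7:45526065-45526320), with a score of 130.19 and rank 2379, centred 76 bp downstream of the start. The cyclic AMP response element of its promoter, from 12 to 5 bases before the start, lay inside that peak and 84 bp from its centre. The nearest ATF4 peak was 90 kb away, with a score of 165.67 and Fgf21 as its nearest gene.

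Ppp1r15b, the gene for the constitutive subunit CReP, spans chr1:133131166-133139800 and carried the highest CEBPG score of the 9 genes. Its ATF4 peak (chr1:133130974-133131199) had a score of 47.73, rank 1050. Its CEBPG peak (chr1:133130906-133131400) had a score of 1663.64, rank 142, in the first 0.559% of the list. Both reached across the lower-coordinate end of the gene, with centres 80 bp and 13 bp outside it and 67 bp apart. The next ATF4 peak was 1310 kb from Ppp1r15b and the next CEBPG peak 265 kb.

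The kinase genes had no ATF4 peak in 4 of 4 windows. For Eif2ak1 the CEBPG peak (chr5:143872642-143872732, score 51.19, rank 9226) lay inside the gene, 54.9 kb from the start. For Eif2ak4, which encodes the amino acid sensor GCN2, it (chr2:118396815-118396929, score 45.21, rank 15079) lay inside the gene, 7.76 kb from the nearer of the listed starts. For Eif2ak3 it (chr6:70921519-70921652, score 40.63, rank 23605) lay 16344 bp beyond the far end of the gene and inside Tex37. Eif2ak2 had no peak of either antibody, the nearest being 332 kb away for ATF4 (score 57.85) and 133 kb away for CEBPG (score 65.52). Scores of the kinase peaks thus lay between 40.63 and 51.19, around the median of the CEBPG list, and each of the 3 peaks was at most 134 bp wide. Just outside the 20 kb limit, Eif2ak4 had a CEBPG peak at 32.4 kb (score 51.68) and an ATF4 peak at 38.3 kb (score 61.44, nearest to Bmf).

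Effectors and regulators were then set beside all protein-coding genes, as counts without a test. Because the members were chosen as known genes of this response, their counts are no independent evidence of binding. An ATF4 peak lay in the window of 2 of 3 effectors and 1 of 6 kinase and phosphatase genes, against 7.44% of all genes. A CEBPG peak lay in the window of 3 of 3 effectors and 5 of 6 kinase and phosphatase genes, against 43.7% of all genes. Long genes have longer windows and collect more peaks. The effector and phosphatase genes span 2.23 to 8.63 kb. CEBPG marked 5 of 5 of them and 28.1% of the 7925 genes with spans under 10 kb, while ATF4 marked 3 of 5 of them and 4.56% of those genes. The kinase genes span 32.1 to 86.7 kb. CEBPG marked 3 of 4 of them and 56.5% of the 5077 genes with spans of 30 to 100 kb, while ATF4 marked 0 of 4 and 7.74%. The kinase genes thus stood near the background of genes of their length, and nothing is read from their counts.

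The members were also counted by the score and place of their peaks. A CEBPG peak of score 100 or more was in the window of 3 of 3 effectors, 2 of 2 phosphatase genes and 0 of 4 kinase genes (10.9% of all genes). Effector and phosphatase genes thus did not part by this measure. With only 4 kinase genes, 0 is near the share of all genes, and nothing is read from it here or below. A score of 1000 or more was reached at Trib3, Nupr1 and Ppp1r15b, 3 of 9 members (1.3% of all genes). For ATF4, 0 of 9 members reached a score of 100 (0.635% of all genes). Within 1 kb of a gene end, 5 of 9 members had a CEBPG peak (5.56% of all genes) and 3 of 9 an ATF4 peak (0.708%), all of them effector or phosphatase genes.

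Listed promoters were known for 8 of the 9 members and 17492 protein-coding genes. A CEBPG peak overlapped a listed promoter of Ddit3, Trib3, Nupr1 and Ppp1r15a and of no kinase gene, 4 of 8 members, against 1.64% of all genes (287). By score, Nupr1 stood at rank 14, Trib3 at rank 20, Ddit3 at rank 57 and Ppp1r15a at rank 117 among those 287 genes. An ATF4 peak overlapped a listed promoter of Trib3 and Nupr1, 2 of 8 members, against 0.189% of all genes (33), where Nupr1 stood at rank 20 and Trib3 at rank 30. Promoters of 26 genes (0.149%) were overlapped by peaks of both antibodies, with Trib3 and Nupr1 among them.

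**Figure D2:**
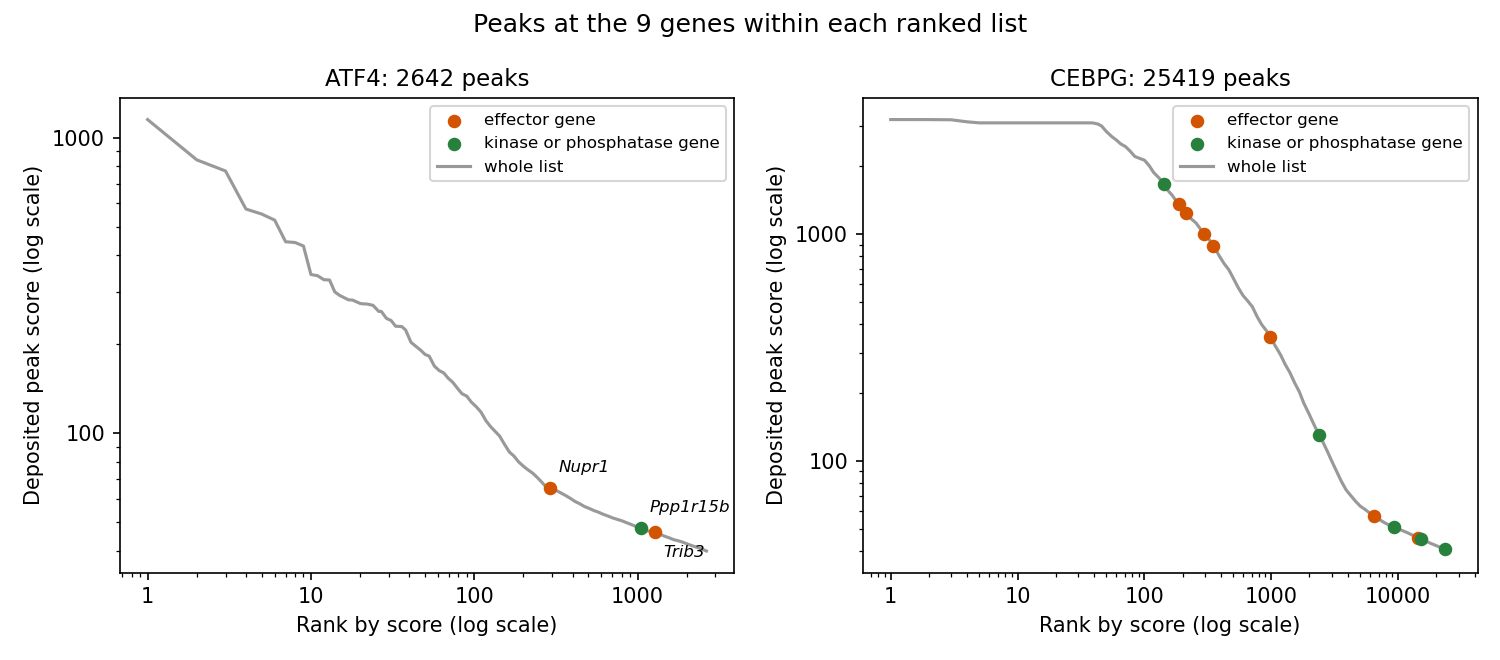
Deposited score against rank for every peak of each list (grey line, both axes logarithmic), with the peaks at effector genes in orange and those at kinase and phosphatase genes in green. The 3 ATF4 peaks lie from rank 292 to rank 1282 of 2642, while the CEBPG peaks fall into a set of 7 with scores of 130.19 or more and a set of 5 with scores of 57.15 or less.

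The ATF4 and CEBPG peaks at the members were then compared by overlap. All 3 ATF4 peaks at members overlapped a CEBPG peak, against 15.1% of all ATF4 peaks. Overlapping peaks were therefore found at 2 of 3 effectors and 1 of 6 kinase and phosphatase genes (1.78% of all genes). These ATF4 peaks lie at gene ends, whereas the 15.1% covers ATF4 peaks anywhere. Of the 33 genes with an ATF4 peak on a listed promoter, 26 also had a CEBPG peak on one, so such company is common at promoters. In the other direction, 3 of the 12 CEBPG peaks lay on an ATF4 peak, against 1.58% of all CEBPG peaks, and 9 did not. Those 3 were among the 4 member peaks with CEBPG scores from 1000 to 2000, and the site upstream of Trib3 was the 4th. Over the whole list, 89 of the 186 CEBPG peaks in that range lay on an ATF4 peak (47.8%, 95% Wilson interval 40.8 to 55%, which covers counting error only). The share was 8.61% (6.43 to 11.4%) for scores from 300 to 500, the range of the peak before Ddit3, and 1.38% (0.872 to 2.16%) for scores from 100 to 200, the range of the Ppp1r15a peak. Ddit3 and Ppp1r15a thus shared the lack of an ATF4 peak with most CEBPG peaks of like score. An ATF4 signal under the lowest listed score would not be seen in these lists.

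The ATF4 scores at the shared member sites were low to middling for such pairs. Nupr1 (65.21) was above 48.4% of the 91 pairs with a CEBPG score from 1000 to 2000, Ppp1r15b (47.73) above 14.3% and Trib3 (46.24) above 12.1%. The ATF4 score of those 91 pairs, the members' own included, ranged from 41.2 to 277, with a median of 65.5.

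**Figure D3:**
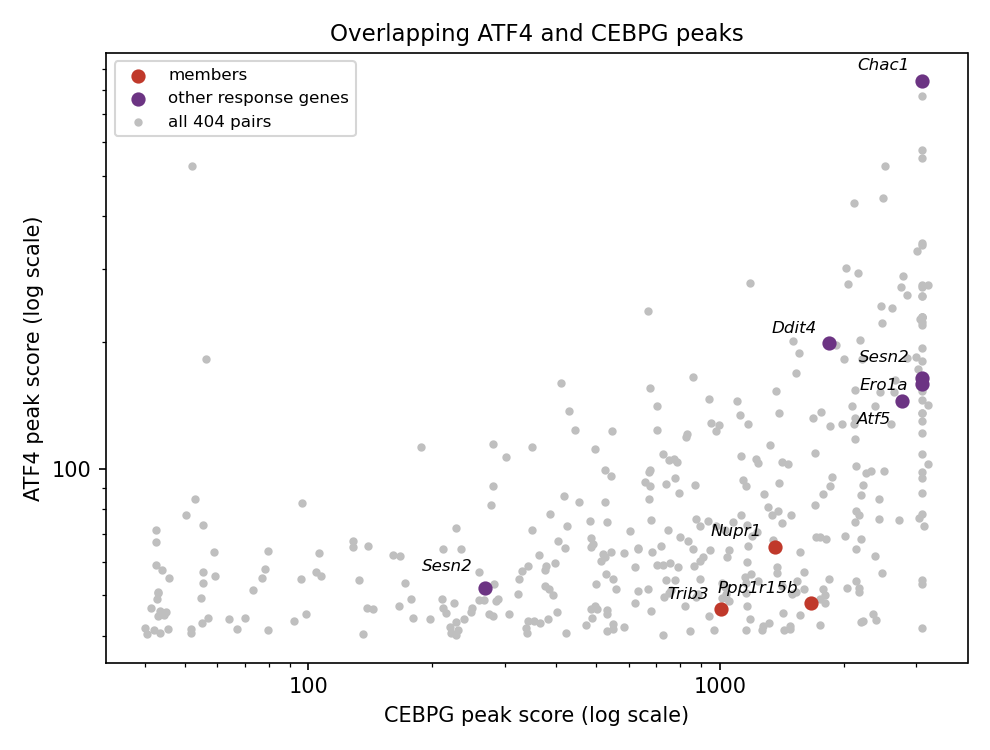
ATF4 score against CEBPG score for all 404 overlapping pairs (grey points, both axes logarithmic), with pairs at the members in red and at other listed genes of the stress response in purple. Trib3, Ppp1r15b and Nupr1 have ATF4 scores of 46.24, 47.73 and 65.21, low for Trib3 and Ppp1r15b and close to the median for Nupr1 among pairs with CEBPG scores from 1000 to 2000, whereas the pair at Chac1 stands at the top right.

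Motifs were searched on both strands in the listed 300-base promoters. The composite element TGATGNAA was present in the promoters of Trib3 and Nupr1, 2 of 8 members. It was present in 41.7% (28.8 to 55.7%) of the 48 promoters under an ATF4 peak and in 22.2% (18.4 to 26.5%) of the 410 promoters under a CEBPG peak, against 3.97% of all 32851 listed promoters. Those of Trib3 and Nupr1 are among the 48. Several promoters of a gene are counted separately, although they can share sequence and peak, so the intervals may be too narrow. The longer TGATGCAAT, found at Nupr1, was in 0.192% of all listed promoters. The cyclic AMP response element TGACGTCA of Ppp1r15a was in 1.79% of them. Its share was close to that, 2.44% (1.33 to 4.43%), in promoters under a CEBPG peak, and it was in 0 of the 48 under an ATF4 peak. The shorter TGATG, which lies within the longer motifs, also matched at Eif2ak1 and Eif2ak4, but it was in 39.3% of all promoters. The C/EBP palindrome TTGCGCAA (0.183% of all promoters) and the endoplasmic reticulum stress element (ERSE, 0.119%) matched at 0 of 8 members. A match describes the letters only, and these windows leave out most of the 370 bp under the peak before Ddit3.

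The rest of the response was read from 5 lists, 31 genes in all, of which 7 had an ATF4 peak and 17 a CEBPG peak in the same windows (7.44% and 43.7% of all genes). Of the 8 genes for subunits of eIF2 and of its exchange factor eIF2B, 0 had an ATF4 peak and 3 a CEBPG peak. These were Eif2s2, the beta subunit of eIF2 (295.22, centred 100 bp from a gene end), Eif2b5 (76.26) and Eif2b1 (43.84). Of 8 partners of the kinases and phosphatases, 0 had an ATF4 peak, and the 2 with a CEBPG peak, Oma1, a mitochondrial protease upstream of HRI (48.67), and Dnajc3, a chaperone known to inhibit PERK and PKR (47.33), had low scores. Gcn1, the coactivator of GCN2, and the catalytic subunits Ppp1ca, Ppp1cb and Ppp1cc had no peak.

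The 7 genes with an ATF4 peak were all in the transcription factor and target lists, which were assembled from general knowledge of ATF4 and are no independent evidence of its binding. Of 7 death and oxidation targets, 5 had an ATF4 peak and 5 a CEBPG peak. Ero1a, an endoplasmic reticulum oxidase known as a CHOP target, had an ATF4 peak of 159.56 on a CEBPG peak of 3100, centred 7056 bp from a gene end. The score 3100 is shared by CEBPG peaks from rank 5 to rank 39, so it does not order them. Bcl2l11, the proapoptotic BIM, had an ATF4 peak of 52.78, centred 5086 bp from a gene end, and no CEBPG peak. The other ATF4 scores were 164.36 at Sesn2, 199.36 at Ddit4 and 841.75 at Chac1. Of 5 transcription factor genes, 2 had an ATF4 peak (Cebpb 282.46 and Atf5 145.38) and 4 a CEBPG peak, the top 3 being Atf5 (2765.18), Cebpb (845.58) and Atf3 (725.28). Ddit3, Trib3, Nupr1 and the phosphatase genes lay below most of these for ATF4, with 65.21 as their highest score against a range from 52.78 to 841.75. Close relatives of the effectors had no ATF4 peak at 3 of 3 genes. With so few genes this is near the 7.44% of all genes that had one, and nothing is read from it. The highest CEBPG scores of these relatives were 269.92 at Trib2, 62.04 at Trib1 and 47.47 at Nupr1l.

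**Figure D4:**
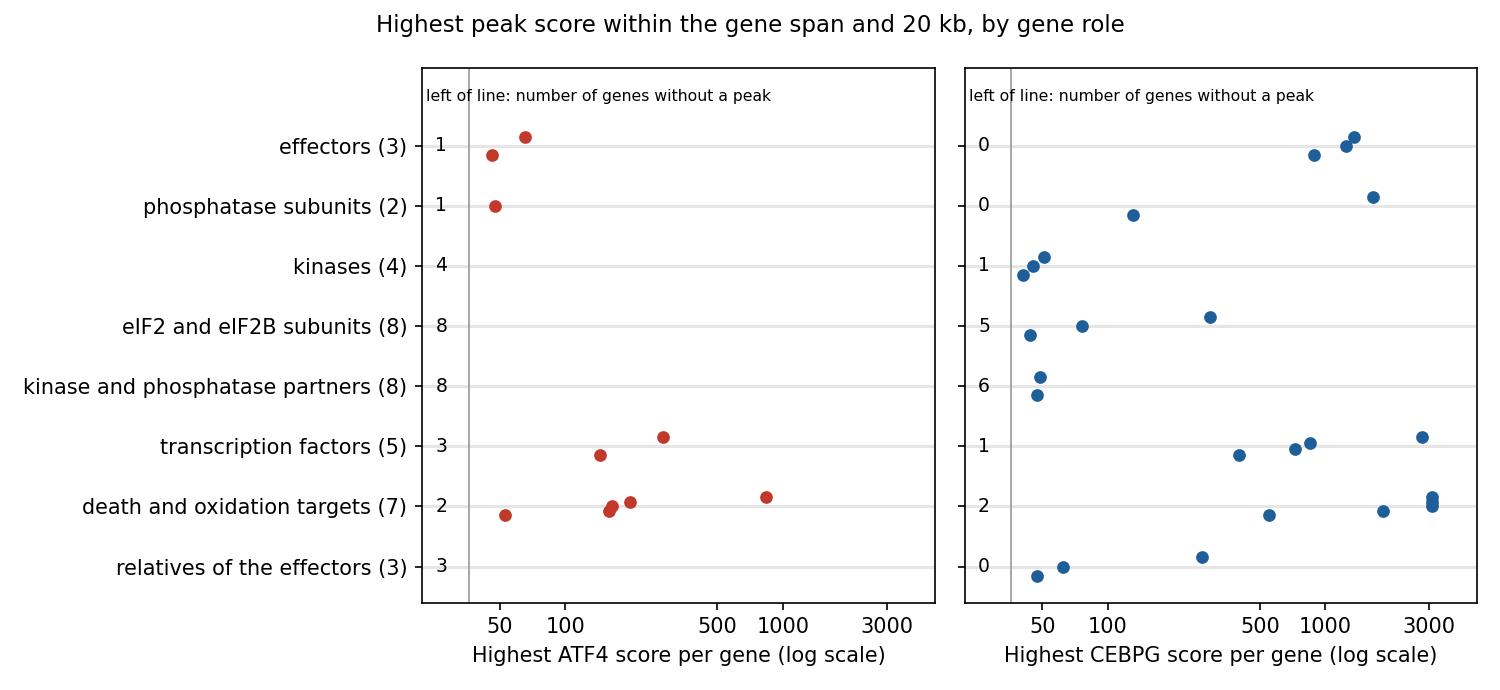
Highest ATF4 score (left) and CEBPG score (right) per gene within the span and 20 kb, by role, on logarithmic axes, with the size of each class in parentheses and the number of genes without a peak left of the vertical line. The effectors have CEBPG scores from 885.2 to 1355.74 and the kinases from 40.63 to 51.19. The 885.2 is the site at the Mars1 promoter in the window of Ddit3, whose highest score is 351.41 within 5 kb and 57.15 within the gene, and the ATF4 scores of members reach 65.21 against 841.75 among the targets.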

How the data were processed

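ChIP-seq peak lists of ATF4 and CEBPG were used, 1 library each. Per the submitters' processing notes, Trimmomatic, BWA, MACS 1.4.2, HOMER and mm10 were used; settings, background and pooling are not given in the sources used here. The score the authors deposited is the number that ends the peak name in column 4. It appears to be MACS's multiple of a negative log10 p-value, although no header says so. Depth is unknown.

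Spans and promoters came from RefSeq tables (GRCm38.p6) by symbol, and a promoter was listed for 8 of 9 members. Positions are 1-based. Peaks overlapping by at least 1 bp were shared. Python 3.11.15 with pandas 2.3.3 and numpy 2.4.6 was used, with interval and motif functions tested on simulated data. Members and lists were chosen with earlier results of these data known. Every peak of each member is named, and of each of the 5 lists the genes with an ATF4 peak and the top 3 by CEBPG score. Ero1a matched through a synonym. No significance test was run. Alternatives changed the window, score minimum, peak width, overlap rule and motif letters. Distances of 1 kb from a gene end and overlap with a listed promoter were added after seeing the data. The score cut of 1000 and the CEBPG score ranges used for overlap were not among the planned score minima, 50 and 100. The ranges were set to hold the scores of member peaks.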

Additional observations from a re-analysis of the deposited data

How the results depend on the processing

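Of 61 alternatives to the counts, 44 stayed within 1.5 times the value reported and 17 did not. The score minimum mattered most. At a score of at least 50, ATF4 peaks remained at 1 effector (Nupr1) and at 0 kinase and phosphatase genes, with 1 ATF4 peak and 1 gene with overlapping peaks, and CEBPG peaks at 3 kinase and phosphatase genes. At a score of at least 100, ATF4 gave 0 effectors, 0 kinase and phosphatase genes, 0 peaks and 0 genes with overlapping peaks, while CEBPG gave 2 kinase and phosphatase genes and 7 peaks. The weak ATF4 calls at Trib3 and Ppp1r15b therefore rest on peaks near the lower limit of the list. Gene spans alone left 7 CEBPG peaks, and 50 kb on either side gave 2 kinase and phosphatase genes with an ATF4 peak. Within 1 kb of a gene end, 2 kinase and phosphatase genes had a CEBPG peak. Requiring 50% of both peaks to overlap left 1 gene with overlapping peaks, Trib3, which is not the gene left at a score of at least 50 (Nupr1). The composite element matched at 1 member as TGATGCAAT and at 4 as TGATG. The 3 effectors with a CEBPG peak were found under every alternative run. For Ddit3 the highest CEBPG score was 351.41 within 5 kb and 57.15 within the gene or among peaks nearest to it. No paired analysis was possible because there was 1 library per antibody.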
